A study of Mus musculus with 4 samples.

Results

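Distal regions that carried a Runx2 peak at day 28 and at neither earlier time point are described here, as measured by chromatin immunoprecipitation and sequencing (ChIP-Seq). The peak lists of days 0, 9 and 28 were combined into 67703 regions by joining peaks with 1 bp or more in common. A region was kept where its peaks came from day 28 only, where its centre lay more than 1 kb and at most 100 kb from the nearest transcription start site (TSS) of a protein-coding gene, and where the centre was in no protein-coding exon. This left 3704 regions, 5.47% of all merged regions and 3704 of the 5141 regions found at day 28 only. Of the others, 363 lay within 1 kb of a TSS, 941 lay more than 100 kb from one and 133 had their centre in an exon. Each of the 3704 regions consisted of a single day 28 peak. The regions were chosen by the presence and absence of peaks, so that difference in occupancy is the definition of the set and not a result.

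The cells were MC3T3-E1 subclone 4, an osteoblast precursor line from C57BL/6 mouse calvaria, used at passages 28 to 31. Day 0 cells were proliferating preosteoblasts, day 9 cells were depositing matrix and day 28 cells were mineralizing. Day 0 cells were kept without ascorbic acid, and differentiation was driven by ascorbic acid and beta-glycerophosphate. All 3 time points used the same Runx2 antibody (M70), and the control was input DNA of day 9 cells for every list. The replicate libraries of a time point had been pooled before peak calling, so no comparison between time points has a replicate error, and the intervals below cover counting error over regions only. The line is 1 subclone, and neither its cell identity nor the share of cells bound at a region can be read from a peak list.

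Runx2 is the transcription factor that commits mesenchymal cells to the osteoblast lineage, and mice without it form no bone. Its Runt domain, stabilised by the partner Cbfb, recognises the core sequence TGTGGT, which reads ACCACA on the opposite strand. Much of its binding in osteoblasts lies far from promoters, in introns and intergenic enhancers, where it can share DNA with other factors such as AP-1, C/EBP and basic helix-loop-helix (bHLH) proteins.

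The sequences of 9 members are shown because they hold the core motif near their centre and are either among the strongest members or have the highest score at a gene of one of the lists described further on. Each is the centre base with 50 bases to either side, read on the forward strand of the mm9 genome, and capitals mark every TGTGGT or ACCACA.
Eya2, chr2:165566335-165566435: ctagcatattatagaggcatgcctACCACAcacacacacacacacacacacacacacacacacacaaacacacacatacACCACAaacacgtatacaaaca
Tnfsf11, chr14:78697263-78697363: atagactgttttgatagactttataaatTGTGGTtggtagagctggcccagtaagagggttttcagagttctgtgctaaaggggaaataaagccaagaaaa
Adamts5, chr16:85986331-85986431: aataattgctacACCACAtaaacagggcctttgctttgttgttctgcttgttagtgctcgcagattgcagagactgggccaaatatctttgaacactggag
Gdf6, chr4:9805450-9805550: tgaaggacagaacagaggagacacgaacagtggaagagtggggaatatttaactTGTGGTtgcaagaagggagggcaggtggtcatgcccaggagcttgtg
Fgf7, chr2:125798119-125798219: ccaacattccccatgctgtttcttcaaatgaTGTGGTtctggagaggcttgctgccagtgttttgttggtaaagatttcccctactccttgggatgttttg
Klf15, chr6:90416341-90416441: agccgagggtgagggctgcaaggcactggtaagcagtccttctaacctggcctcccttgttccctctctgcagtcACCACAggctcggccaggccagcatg
Sox5, chr6:144118554-144118654: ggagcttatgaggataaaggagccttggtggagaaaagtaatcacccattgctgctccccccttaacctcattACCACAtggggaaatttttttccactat
Tsc22d3, chrX:137063727-137063827: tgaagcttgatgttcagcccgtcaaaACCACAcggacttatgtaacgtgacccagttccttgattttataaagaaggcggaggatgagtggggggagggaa
Sema4d, chr13:51887945-51888045: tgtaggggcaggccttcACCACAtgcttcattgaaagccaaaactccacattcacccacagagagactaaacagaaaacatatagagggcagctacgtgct
In the Eya2 sequence both cores flank a run of CA repeats, and the other 8 sequences hold a single core each.

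A second set of sequences shows the other short motif that stood out at member centres, the E-box CAGCTG, a binding sequence of bHLH factors. It holds the 3 highest-scoring members named for a gene list that had an E-box but no core within 50 bp of the centre, and the Mepe member because it held 2 E-boxes. This set was chosen after its values were seen. Capitals mark CAGCTG, which is its own reverse complement.
Itga11, chr9:62502304-62502404: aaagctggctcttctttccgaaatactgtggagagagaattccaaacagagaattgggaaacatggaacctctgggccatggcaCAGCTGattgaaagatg
Wnt7b, chr15:85436648-85436748: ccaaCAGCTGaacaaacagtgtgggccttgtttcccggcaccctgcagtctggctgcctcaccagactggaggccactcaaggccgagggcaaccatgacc
Tcf7l2, chr19:55833776-55833876: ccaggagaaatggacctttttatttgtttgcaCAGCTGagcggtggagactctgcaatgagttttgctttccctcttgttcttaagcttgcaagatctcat
Mepe, chr5:104774405-104774505: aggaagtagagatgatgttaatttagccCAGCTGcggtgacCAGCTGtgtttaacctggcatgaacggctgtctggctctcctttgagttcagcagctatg

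Most members were weak peaks. The score of a peak is 10 times the negative log10 of the peak caller's p-value, and the lists hold only peaks with a score of 100 or more. Member scores ran from 100 through a median of 139 to a highest value of 1429, with quartiles of 115 and 187. When the day 28 list was divided by score into 10 equal classes, the lowest class supplied 32.0% of the members and the next 24.2%, while 791 members (21.4%) scored 200 or more and 61 (1.65%) scored 500 or more. For comparison, the 10186 day 28 peaks in distal regions shared by days 9 and 28 had a median score of 225. Members were between 138 and 1950 bp wide, with a median of 586 bp.

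**Figure D1:**
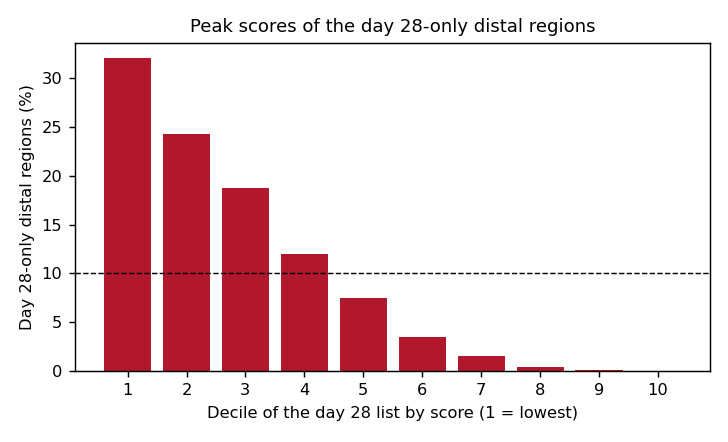
Share of the 3704 day 28-only distal regions (vertical axis, percent) in each of 10 equal classes of the day 28 peak list by score (horizontal axis, 1 is the lowest). The dashed line marks the 10% that an even spread would give; 32.0% of the regions fall in class 1 and 0.108% in class 9.

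The limits of the rule were sharp in places. The member closest to an earlier peak, near Afap1, ended 1 bp away from it with a score of 164, and the excluded region with the least overlap, near Ier5l, shared 6 bp with one and had a score of 130. Such cases were few, since 70 members (1.89%) had an edge of a day 0 or day 9 peak within 100 bp. At the 1 kb limit, the closest member lay 1004 bp from the Prkab1 start site and the closest excluded region lay exactly 1000 bp from that of Gm10711. At the 100 kb limit, the farthest member lay 99982 bp from Rps12 and the nearest excluded region 100014 bp from Gli3.

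An earlier peak weaker than the lists' limit would leave a region among the members, and the peak numbers bear on this. Peaks carry running numbers along the genome with gaps, taken here as peaks left out of the lists, and the highest number was 117897 in the day 9 list of 60596 peaks and 39494 in the day 0 list of 25457 peaks. For 533 members (14.4%), the listed day 9 peaks to either side carried consecutive numbers, so no further day 9 peak had been numbered between them. For 208 members (5.62%) this held in both earlier lists. At the other members at least 1 number was missing between the flanking peaks of an earlier list, or there was no flanking pair, and where a left-out peak lay is not known. The motif comparisons below were also made on the 533 and the 208 members, an alternative chosen after seeing the data.

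The strongest member (score 1429) covered 1298 bp of an intron of Eya2, a phosphatase and coactivator of homeodomain proteins, at chr2:165565737-165567034 in mm9. Distances to start sites are given as negative where the region was upstream. The Eya2 member lay at 76097 bp from the nearest start site, held 4 copies of the core, and had its nearest day 9 peak 6286 bp away. The members ranked 3 and 4 were intergenic, at chr16:30499217-30500066 with Tmem44 nearest (score 1248) and at chr13:37341413-37342472 with Ly86 nearest (score 1242), at 51017 bp and -95272 bp from these start sites. The Ly86 member stood 51885 bp from any day 9 peak.

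The fifth and sixth members (scores 1087 and 976) both had the start site of Fgf1, a fibroblast growth factor, as their nearest. Members ranked 8 to 10 scored 923, 920 and 841. They lay near Gm3443 (chr19:21660299-21660789), at -29205 bp from Foxp1, which encodes a forkhead repressor (chr6:99244919-99246510), and in an intron of Rassf5, 2303 bp from its start site (chr1:133138853-133140211). Among the 10 strongest members, the Eya2 member was the only one with TGTGGT within 50 bp of its centre, and 6 of the 10 held the core anywhere in the region. Within the whole day 28 list the Eya2 member stood at percentile 85.3.

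At Fgf1 the day 28-only regions clustered in a stretch without earlier peaks. Fgf1 was the nearest gene to 8 members, the most of any gene, and 6 members were assigned to Arhgap26, a GTPase-activating protein gene that overlaps Fgf1. Between chr18:38862839 and chr18:39015972 stood 10 members within 153134 bp, and neither the day 9 nor the day 0 list held a peak there. The 8 Fgf1 members scored 1087, 976, 346, 227, 192, 166, 131 and 128. A pair of them was thus among the strongest members, while 2 scored below the members' median. Those scoring 1087, 976, 227 and 192 held no TGTGGT anywhere in the region. Only the Fgf1 member scoring 131 held it within 50 bp of its centre. Within 100 kb of Fgf1 the day 28 list held 10 peaks, 9 of them members, the day 9 list 1 peak with a score of 105, and the day 0 list none. Between the listed peaks that flank the stretch, 3 numbers were missing at day 9 and 4 at day 0.

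The other genes with the most members were of several kinds, and where 6 genes tied at 6 members, the 3 with the highest sum of scores are named. Rgl1, a Ral guanine nucleotide exchange factor gene, was nearest to 7 members with scores from 108 to 587, all within introns of the gene. Unlike the Fgf1 stretch, the span of the Rgl1 members held earlier binding, with 3 day 9 peaks and 1 day 0 peak. Within 100 kb of Rgl1 the lists held 8 day 9 and 3 day 0 peaks. The strongest of day 9 (score 2517) lay outside that span, at -0.236 kb from the gene start. Foxp1 was nearest to 6 members (132 to 920), Rasl11b to 6 (103 to 713, 5 of them in introns of Scfd2) and Arhgap26 to 6 (116 to 433). Across all genes, 2662 of 22359 protein-coding genes (11.9%) were nearest to at least 1 member, 1968 of them to exactly 1 and 226 to at least 3. Most members, 2064 (55.7%), had no other member within 50 kb, and 332 (8.96%) stood in 72 runs of 4 or more.

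**Figure D2:**
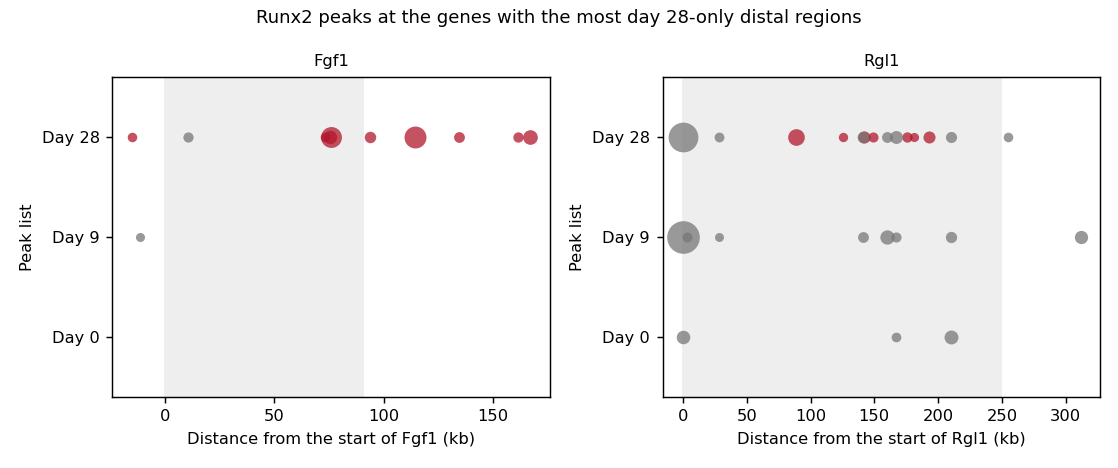
Runx2 peaks around Fgf1 and Rgl1 in the 3 lists (vertical axis) against the distance of the peak centre from the gene start in kb, positive into the gene (horizontal axis). Circle area grows with the peak score, red circles are day 28-only distal regions, grey circles are other peaks and the shaded band is the gene. Around Fgf1, 9 of 10 day 28 peaks are red and 1 day 9 peak is present; around Rgl1, 7 of 14 are red and 8 day 9 peaks are present.

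Members lay in the neighbourhood of earlier binding. Their edges were a median of 5620 bp from the nearest day 9 peak (95% interval 5307 to 5973), against 19283 bp for 296511 genome positions, taken every 5 kb, that met the same distance and exon rule. Within 10 kb, 64.4% of members had a day 9 peak (95% interval 62.8% to 65.9%), against 35.5% of positions. The corresponding shares for day 0 peaks were 39.4% and 20.5%, and for other day 28 peaks 61.0% and 28.0%. Distances run from the edges of members and from single positions, and the part of member width in them was not tested. The nearest gene had another Runx2 region with a day 9 peak for 95.2% of members (95% interval 94.5% to 95.9%), for 96.6% of distal regions of days 9 and 28, for 93.7% of those of day 9 only and for 92.4% of those of day 0 only. Of all protein-coding genes, 69.8% were nearest to a region with a day 9 peak. That share counts each gene once, however much sequence lies nearest to it, and so is not a background for shares of regions. The share for genome positions is not given here. A Runx2 peak of day 9 within 1 kb of a start site of the nearest gene was present for 67.1% of members, 71.3% of distal regions of days 9 and 28, 64.9% of those of day 9 only and 63.1% of those of day 0 only, and 29.99% of members had no such promoter peak at any time point.

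In location the members were close to other distal regions. Introns of protein-coding genes held 1926 members, or 52.0% (95% interval 50.4% to 53.6%), compared with 56.1% of distal regions of days 9 and 28, 55.9% of those of day 9 only, 46.7% of those of day 0 only and 47.6% of genome positions. The median distance to a start site was 22398 bp (95% interval 21067 to 23341) for members, 19800 bp for regions of days 9 and 28, 22911 bp for day 0 only and 24188 bp for genome positions. Relative to eligible sequence, members were densest on chromosomes 11 and 19 (19.2 and 18.6 per 1000 positions) and sparsest, apart from Y, on X and 14 (4.49 and 6.97), around 12.5 over all chromosomes. Distal regions of days 9 and 28 were also densest on chromosome 11 and sparse on X (58.6 and 6.28 per 1000 positions).

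The Runx core was concentrated at member centres. TGTGGT, on either strand, was found within 50 bp of the centre in 858 of 3704 members, or 23.2% (95% interval 21.8% to 24.6%), against 6.91% of windows of the same length 500 bp to either side and 7.50% of genome positions. The difference between centre and flanks was 16.3 percentage points (95% interval 14.8 to 17.7). It was 17.4 points among the 533 members without a missing day 9 number and 14.9 points among the 208 without a missing number in both lists. The variant core TGCGGT was found in 3.19% of centres and 0.796% of flanks. Over whole regions, 2200 members (59.4%) held at least 1 TGTGGT. No background share for stretches of this width is given here, and wider members held it more often. The share was 54.9% at scores from 100 to 120 (median width 528 bp) and 68.8% from 250 upward (724 bp). Cores per kb were 1.43 and 1.47 in these bands.

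The bases beside the core also differed between centres and flanks. Counting from the first T of TGTGGT as position 1, the base after the core (position 7) was T in 44.6% of 936 cores at member centres (95% interval 41.3% to 47.8%) and in 31.1% of 540 cores in flanks (27.2% to 35.2%). The base before the core was C or T in 38.7% and 30.6% of central cores, and in 27.8% and 18.5% of flanking cores. The octamer TGTGGTTT accounted for 22.6% of central and 10.0% of flanking cores. All 2080 pairs of 6-base sequences and their reverse complements were compared between centres and flanks. After widening the intervals for the number of sequences, 198 were higher and 194 lower at centres. The highest by difference was TGTGGT itself, followed by 3 sequences that overlap it (CTGTGG with its reverse complement, then GTGGTT, then TTGTGG), and by CAGCTG.

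Members held the core less often than distal regions of days 9 and 28 and of day 9 only. Distal regions of all 3 days, not weighted by score, held it in 21.8% (95% interval 20.96% to 22.8%), close to the members. Day 28 peaks in distal regions of days 9 and 28, weighted to the members' distribution over score deciles, held it in 32.0%, a difference of members from these peaks of -8.81 points (95% interval -10.6 to -6.99). Distal day 9-only regions held it in 33.3%, a difference of -10.1 points (-11.6 to -8.55). Both differences kept their sign and their intervals excluded 0 among the 533 members (-8.98 and -10.004) and the 208 members (-11.2 and -12.1). The gap was present in each of 4 score bands. In the lowest, from 100 to 120, the shares were 25.8% for members and 34.0% for peaks of days 9 and 28, and from 250 upward they were 21.5% and 28.0%.

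Against distal day 0-only regions (19.2%), members held the core more often by 3.94 points (95% interval 1.92 to 5.94). This comparison depended on the score limit. With day 28 peaks of p up to 1e-20 only, which left 791 members, the difference was 2.26 points (-0.815 to 5.55). With that limit in all lists it was -0.475 points (-3.20 to 2.22), and with 1e-50 in all lists -2.60 points (-6.75 to 1.52). A limit in all lists also removes weaker day 0 and day 9 peaks, so regions that hold one count as day 28 only. Those sets, of 2007 and 830 regions here and below, are thus not the stronger members alone. Peak width moved with the sets of days and its part was not tested, the median region being 586 bp wide for members, 719 bp for days 9 and 28, 473 bp for day 9 only and 754 bp for day 0 only.

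The E-box CAGCTG was the second motif of the members. It lay within 50 bp of the centre in 498 members, or 13.4% (95% interval 12.4% to 14.6%), against 5.08% of flanks and 3.95% of genome positions, a difference of 8.37 points between centre and flanks (7.19 to 9.60). Members held it more often than distal day 9-only regions (7.44%), by 6.00 points (4.86 to 7.20), and than day 0-only regions (6.00%), by 7.44 points (6.01 to 8.85). Both differences kept their direction, with intervals above 0, under every alternative run, including the 533 and the 208 members. Against score-matched peaks of days 9 and 28 (11.3%), the difference of 2.11 points (0.780 to 3.48) was smaller. Its interval held 0 at each stricter score limit, with the sign turned to -0.735 points (-2.45 to 1.06) at p up to 1e-20 in all lists, and also when peaks within 1 kb counted as shared (1.32 points) and among the 533 and the 208 members (2.66 and 2.27 points).

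E-box and core were spread over the members without a detectable link. The E-box was present in 12.8% of members with a core and in 13.6% of members without, a difference of -0.813 points (95% interval -3.26 to 1.88), and the motifs can share 2 bases where they touch. Both were present in 110 members, while 2458 (66.4%) held neither within 50 bp of the centre. The share with neither was 62.3% in distal regions of days 9 and 28 and 75.6% in those of day 0 only.

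**Figure D3:**
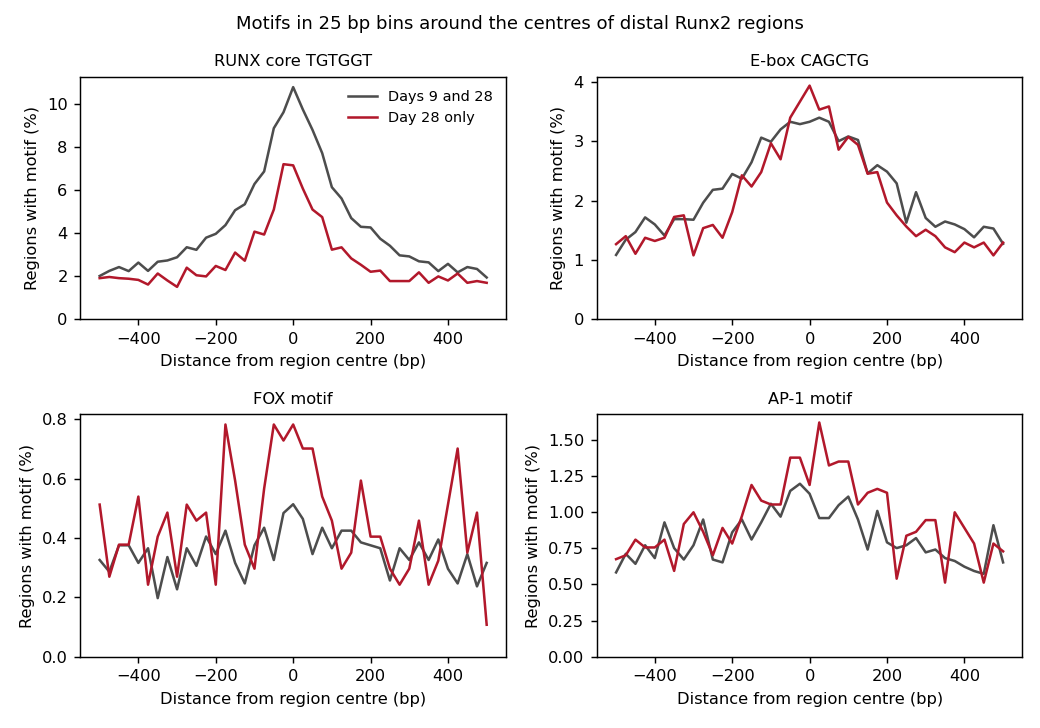
Percent of regions (vertical axes) with a motif in each 25 bp bin around the region centre (horizontal axes, bp), for the 3704 day 28-only distal regions (red) and the distal regions of days 9 and 28 (grey). The RUNX core reaches 7.21% of day 28-only regions in its highest bin against 10.8% of regions of days 9 and 28, the E-box reaches 3.94% against 3.401%, and the FOX and AP-1 curves rest on few regions per bin.

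Of the 21 motifs searched, 9 were higher at member centres than in flanks, 2 were lower and 10 had intervals that held 0, with intervals widened for 21 motifs. Besides the core, its variant and the E-box, the higher ones were the nuclear factor I (NFI) motif TGCCAA (8.77% against 4.93%), the TEAD motif CATTCC (8.42% against 5.01%), the AP-1 motif TGANTCA (5.29% against 2.77%), the GC-box GGGCGG of Sp and Klf factors (3.29% against 1.53%), the forkhead (FOX) motif TGTTTAC (2.89% against 1.39%) and the CTCF motif (2.32% against 0.810%). The homeobox motif TAATTA (1.40% against 2.93%) and the TCF/LEF motif CTTTGAT (0.675% against 1.58%) were lower at centres. In genome positions these shares were 5.02% (NFI), 5.39% (TEAD), 2.91% (AP-1), 0.989% (GC-box), 1.47% (FOX), 0.651% (CTCF), 3.33% (homeobox) and 1.88% (TCF/LEF). The pattern was not particular to the members. In distal regions of days 9 and 28 the same 9 motifs were higher at centres, and homeobox and TCF/LEF were lower. There the SOX motif was lower as well (3.62% against 4.53%), which was not the case in members. Centre and flank shares there were 8.39% and 4.94% for NFI, 6.91% and 5.06% for TEAD, and 4.85% and 2.12% for the GC-box. They were 1.75% and 1.25% for FOX, and 1.86% and 0.766% for CTCF.

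The motifs separated the members from the other distal sets to different degrees. Against score-matched peaks of days 9 and 28, with widened intervals, 5 of the 21 motifs were higher in members. The core and the GC-box were lower (the GC-box by -1.28 points). Besides the E-box and FOX, the higher ones were SOX (ACAATG, 2.21 points), C/EBP (1.79 points) and TEAD (1.75 points). For SOX and C/EBP the widened interval between member centres and flanks held 0 (5.59% and 5.08% for SOX, 5.24% and 4.33% for C/EBP). Genome positions held SOX in 6.08%, more often than members. FOX was held by 2.89% of members and 0.797% of day 9-only regions, a difference of 2.09 points (95% interval 1.58 to 2.69). This difference kept its sign, with intervals above 0, under every alternative run. Day 9-only regions held FOX less often at centres than in flanks (0.797% against 1.30%). The same was true there of TEAD (4.40% against 5.08%) and C/EBP (1.85% against 3.35%). With intervals widened for 21 motifs, 12 motifs were higher in members than in day 9-only regions and 1, the core, was lower. FOX exceeded score-matched peaks of days 9 and 28 by 1.28 points (0.687 to 1.93), a difference that was 0.484 points (-0.292 to 1.36) at p up to 1e-20 in all lists and 0.228 points (-0.778 to 1.51) at 1e-50, and whose interval also held 0 among the 208 members. Between centre and flanks the FOX difference of 1.498 points was 0.723 points (-0.260 to 1.98) at 1e-50. AP-1 was less frequent in members than in day 0-only regions (11.05%), with a difference of -5.75 points (-7.16 to -4.39) that kept its sign, with intervals below 0, under every alternative run, and more frequent than in day 9-only regions (2.69%), by 2.61 points (1.88 to 3.41). The last difference was 0.276 points at p up to 1e-50 (-1.15 to 2.05) and -0.763 points among the 208 members (-1.96 to 2.16). TEAD showed the same order, with 11.7% at day 0 only, 8.42% in members and 4.40% at day 9 only, and so did C/EBP (TTGCNNAA) with 6.30%, 5.24% and 1.85%, though for C/EBP the interval of the difference between members and day 0 only held 0 (-2.24 to 0.0875).

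**Figure D4:**
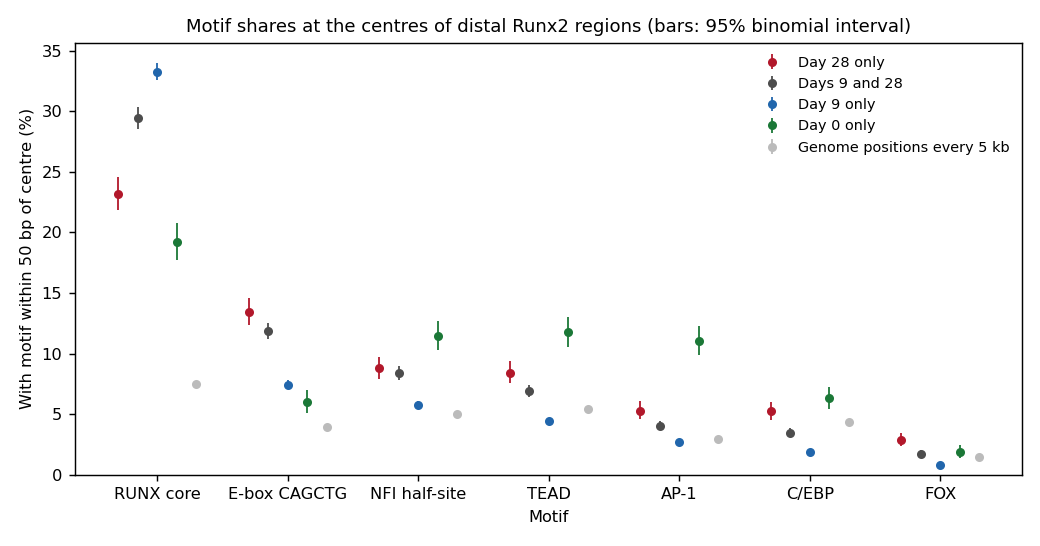
Share of regions with each of 7 motifs within 50 bp of the centre (vertical axis, percent) for distal regions of day 28 only, days 9 and 28, day 9 only and day 0 only, and for genome positions every 5 kb. Points are shares and bars 95% Clopper-Pearson intervals; for the E-box the day 28-only point (13.4%) lies above those of day 9 only (7.44%) and day 0 only (6.00%), and for AP-1 it lies between day 9 only (2.69%) and day 0 only (11.05%).

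The GC content of members lay above that of day 0-only regions and below that of regions of day 9 only, of days 9 and 28 and of all 3 days. The 500 bp around member centres had a median GC content of 48.2% (95% interval 48.0% to 48.4%), compared with 46.6% at day 0 only, 50.6% at day 9 only, 51.2% at days 9 and 28 and at all 3 days, and 42.8% for genome positions. The median number of CpG dinucleotides in this window was 6 in members, 7 at days 9 and 28, and 5 at day 9 only and at day 0 only. GC content moves with the motif shares across these sets and its part in them was not tested.

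The genes nearest to members were grouped by 15 gene lists, with 473 of their 478 genes found in the annotation. A total of 166 of these 473 genes (35.1%) were nearest to at least 1 member, against 11.9% of all protein-coding genes. These gene shares do not account for how much sequence lies nearest to each gene. The lists were also chosen with earlier results of these data known. The share of members nearest to a list is given beside the same share of genome positions and of distal regions of days 9 and 28, and no list was tested.

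Among genes of mineralization and phosphate handling, 11 of 22 were nearest to a member. Together they took 15 members, 0.405% of all (95% interval 0.227% to 0.667%), against 0.121% of genome positions and 0.415% of regions of days 9 and 28. The highest score was at Mepe, a phosphate-regulating matrix phosphoprotein of the bone and dentin family (score 262, 20107 bp from the start site, chr5:104774229-104774682), whose sequence with 2 E-boxes is shown above. Smpd3, a sphingomyelinase needed for normal bone mineralization, followed with a score of 248.6. Phex and Fam20c, an endopeptidase and a kinase of phosphate balance, scored 187 and 177 in introns of their own genes, and Alpl, the alkaline phosphatase that frees phosphate for mineral, 167. Ibsp and Spp1, bone sialoprotein and osteopontin, had highest scores of 135 and 120. The genes of the list without a member were Bglap and Bglap2 (osteocalcin), Ahsg, Car2, Dmp1, Enpp1, Fgf23, Mgp, Slc20a1, Slc20a2 and Vdr.

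Among osteocyte genes, 10 of 18 were nearest to a member. They took 15 members, again 0.405% (95% interval 0.227% to 0.667%), against 0.149% of positions, 0.168% of regions of days 9 and 28 (0.0979% to 0.269%) and 0.130% of day 9-only regions, with overlapping intervals for members and regions of days 9 and 28. Mepe and Phex also belong to the list above. Gja1, the connexin of osteoblast and osteocyte gap junctions, was nearest to 4 members with a highest score of 325 (chr10:56118999-56119693). Sost, the Wnt inhibitor secreted by osteocytes, had 1 member (score 210, 29592 bp away, chr11:101798508-101798967) and no distal region of days 9 and 28, but 3 of day 9 only. Tnfsf11, which encodes the osteoclast-inducing ligand RANKL, had 1 member in its own intron (score 204) with the core shown above, and Tnfrsf11b, its decoy receptor, 1 with a score of 121. Dmp1 and Fgf23, late osteocyte genes, were nearest to none.

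Collagen and bone matrix genes were nearest to a member in 21 of 43 cases, with 36 members (0.972%, against 0.311% of positions and 0.791% of regions of days 9 and 28). The highest scores were at Thbs1, a thrombospondin (357), Plod2, a collagen lysyl hydroxylase (314), Col5a1 (282), Fbn2, a fibrillin (254), and Col6a2 (248). Dcn and Fmod, small leucine-rich proteoglycans, were each nearest to 4 members. Col1a1, the main bone collagen gene, had 1 member with a score of 126. Matrix proteases and their inhibitors gave 6 of 23 genes and 12 members (0.324%, against 0.116% of positions and 0.277% of regions of days 9 and 28), led by Adamts12 (411, 1307 bp from its start site) and Adamts5 (256).

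Signalling genes had shares near those of regions of days 9 and 28. In the Wnt pathway 23 of 50 genes took 42 members (1.13%, 95% interval 0.818% to 1.53%, against 0.388% of positions and 1.06% of regions of days 9 and 28). Fzd8, a receptor, had 1 member at -2863 bp (score 466), and was nearest to no distal region of days 9 and 28, day 9 only or day 0 only, though peaks of days 9 and 0 lay 1597 and 1581 bp from the member. Wnt7b, a ligand, scored 385, Tcf7l2, a nuclear effector, 343 with 5 members, Ror2, a co-receptor, 286 with 5 members, and Dkk2, an antagonist, 264. In the BMP and TGF-beta pathway 21 of 50 genes took 34 members (0.918%, against 0.421% of positions and 0.692% of regions of days 9 and 28), led by the co-receptor Tgfbr3 (475, 5 members), the ligand Tgfb2 (470) and the receptors Tgfbr1 (274) and Tgfbr2 (223). Among FGF, IGF, PTH and Hedgehog genes, 16 of 40 took 37 members (0.999%, against 0.305% of positions and 0.850% of regions of days 9 and 28), 8 of them at Fgf1. Others were the inhibitor Spry4 (316), the growth factor Igf2 (306, 4 members), the binding protein Igfbp2 (302) and the ligand Fgf7 (300, in an intron of Galk2).

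Transcription factor and corepressor genes of osteoblasts were nearest to a member in 21 of 49 cases, with 33 members (0.891%, against 0.405% of positions and 1.10% of regions of days 9 and 28). Tle2, a Groucho corepressor, was nearest to 4 members with a highest score of 426, Hdac4, a deacetylase that binds Runx2, to 4 (336), and Fosl2 (229) and Ets1 (228) to 1 each. Runx2 itself was nearest to 2 members, the stronger (220) in its own intron at chr17:44826106-44826938, 45120 bp from a start site. Adhesion, integrin and junction genes gave 9 of 33 genes and 20 members (0.540%, against 0.277% of positions and 0.425% of regions of days 9 and 28), led by the semaphorin receptor gene Nrp1 (580) and the collagen-binding integrin gene Itga11 (472, 5 members).

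Genes of other lineages were included as comparison lists. Adipocyte genes were nearest to a member in 8 of 27 cases (15 members, 0.405%, against 0.167% of positions and 0.297% of regions of days 9 and 28). Among them Pparg, the master factor of fat cells, had 1 member at -4350 bp from a start site with a score of 654 (chr6:115306437-115307341), rank 24 of all members, and Zfp423, a factor of preadipocytes, had 5 (highest score 214). Chondrocyte genes gave 2 of 19 (4 members, 0.108%, against 0.124% of positions and 0.188% of regions of days 9 and 28), at Matn1 (177) and Sox5 (126), with none at Acan, Col2a1, Col10a1 or Sox9. Osteoclast and blood cell genes gave 1 of 21 (2 members, 0.0540%, against 0.0958% of positions and 0.128% of regions of days 9 and 28), at Il6st (145.5). Skeletal and smooth muscle genes gave 6 of 26 (11 members, 0.297%, against 0.132% of positions and 0.188% of regions of days 9 and 28), led by Mef2a (257). Stress and unfolded protein response genes gave 9 of 32 (14 members, 0.378%, against 0.174% and 0.356%), led by Tsc22d3 (290), and cell cycle genes 8 of 34 (12 members, 0.324%, against 0.168% and 0.366%), led by Cdk1 (302) and Myc (283). Chondrocyte and osteoclast or blood cell genes were the only 2 of the 15 lists whose share of members was below their share of positions, and both intervals of the members' share held the share of positions (0.0294% to 0.276% and 0.00654% to 0.195%). The nearest gene is an assignment by distance, and no expression at day 28 was analysed here.

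**Figure D5:**
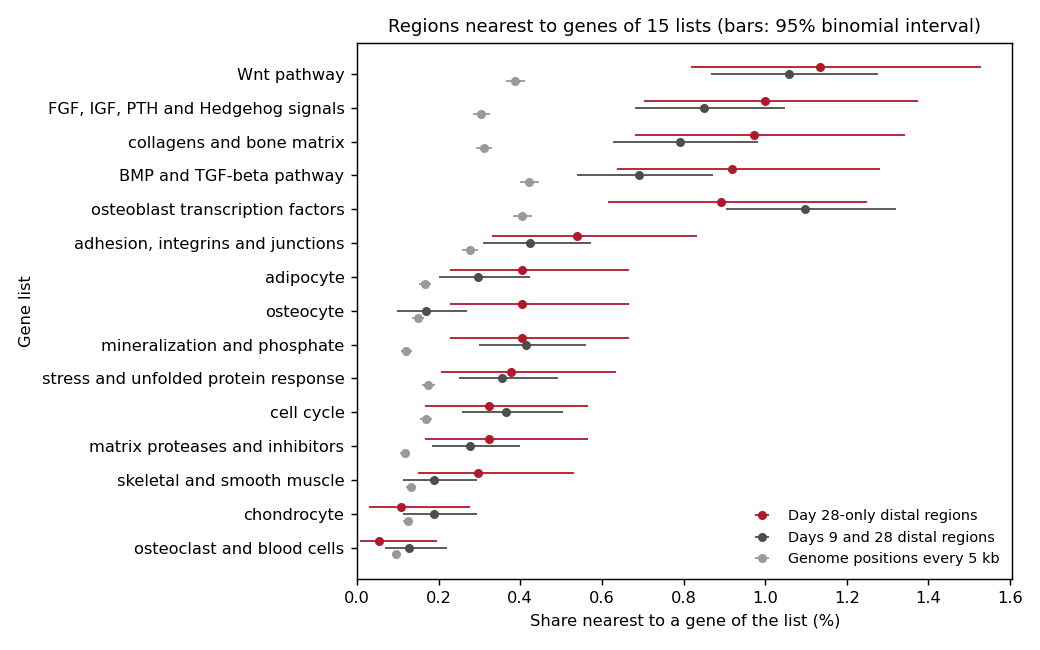
Share of day 28-only distal regions (red), distal regions of days 9 and 28 (dark grey) and genome positions every 5 kb (light grey) that are nearest to a gene of each of 15 lists (horizontal axis, percent; bars are 95% Clopper-Pearson intervals). The Wnt pathway has the highest share of day 28-only regions (1.13%) and osteoclast and blood cell genes the lowest (0.0540%).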

How the data were processed

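Runx2 ChIP-Seq peak lists of MC3T3-E1 cells at days 0, 9 and 28 were used. Per the labels and the methods of the study, the authors processed images with CASAVA 1.6, aligned reads to mm9 with Bowtie 0.12.8, pooled the 2 replicate libraries of a day and called peaks with MACS 1.4.1 against pooled day 9 input, depositing peaks with p below 1e-10. The deposited value of a peak is a score, 10 times the negative log10 of its p-value. Read depth cannot be read from the lists and was not used here. The study states read totals that differ between days, and their part in the peak sets was not tested.

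Peaks were merged and annotated with GENCODE M1 (51710 protein-coding transcripts of 22359 genes; mitochondrial genes left out) in Python 3.11.15, NumPy 2.4.6 and SciPy 1.17.1. Samples were grouped by labelled day. Motifs on either strand were counted in windows reaching 50 bp from the centre and, as flanks, in windows 450 to 550 bp to either side; background positions were taken every 5 kb. Motifs were RUNX core TGTGGT, variant core TGCGGT, AP-1 TGANTCA, TEAD CATTCC, C/EBP TTGCNNAA, C/EBP-ATF4 TGATGNAA, CRE TGACGTCA, ETS CCGGAA, NFI TGCCAA, FOX TGTTTAC, SOX ACAATG, MEF2 CTATTTNTA, homeobox TAATTA, E-box CAGCTG, STAT TTCCNGGAA, steroid receptor ACANNNTGT, GC-box GGGCGG, TCF/LEF CTTTGAT, NF-kB GGGANTTCC, hypoxia ACGTG and a CTCF core pattern; several can overlap each other. Shares have Clopper-Pearson and differences Newcombe 95% intervals; with 1 pooled list per day no p-value between days was computed. Day 28 peaks of days 9 and 28 regions were weighted to the members' score deciles.

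Named regions were the 10 highest-scoring members, up to 5 genes per list by score, the 5 genes with most members (ties by sum of scores) and the members at each limit; 2 of the 10 are not reported here. Members and gene lists were chosen with earlier results of these data known. Alternatives were stricter score limits, other overlap, distance, exon and annotation rules, a wider window, no score weighting and members without missing peak numbers. The functions were tested on simulated data. Sequences are from the mm9 reference; that of the Fbn2 member, which also held the core, is not shown.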

Additional observations from a re-analysis of the deposited data

How the results depend on the processing

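Results were recomputed under other score limits, overlap rules, annotations and windows, and, as alternatives chosen after seeing the data, for single motifs other than the core and for the 533 members with no day 9 number missing around them and the 208 with none missing in either earlier list. Of 122 values, 86 kept their direction and their side of 0 or, for counts and shares, stayed near the reported value; of 147 differences for single motifs, 124 kept their direction and side of 0, though not always their size (AP-1 against day 0 only was -10.9 with the window of 100 bp and E-box against day 9 only 2.90 at 1e-50). The number of regions was 791 with day 28 peaks of p up to 1e-20, 2007 with that limit in all lists and 830 with 1e-50 in all lists. These alternatives hold fewer peaks by construction. The 2007 and 830 include regions with an earlier peak below the limit, which are not members: 791 members scored 200 or more and 61 scored 500 or more. The core in members minus day 0 only was 2.26 points (day 28 at 1e-20), -0.475 (all lists at 1e-20), -2.60 (1e-50), 1.75 (window of 100 bp) and 1.93 (208 members), each with an interval that held 0; the cause was not tested. The share in introns was 50.1% (day 28 at 1e-20), 46.5% (1e-50) and 49.5% (533 members). Median GC was 47.8% (day 28 at 1e-20), 48.8% (all lists at 1e-20), 49.8% (1e-50), 47.8% (peaks within 1 kb shared), 47.8% (all transcripts), 47.0% (533 members) and 46.8% (208 members). The share of members whose nearest gene had another day 9 region was 94.3% with day 28 peaks of p up to 1e-20. For the 2007 and 830 regions of the limits in all lists it was 90.6% and 81.1%, where weaker day 9 peaks were no longer counted either. It was 94.2% (peaks within 1 kb shared), 89.3% (all transcripts), 98.9% (any gene within 100 kb), 98.1% (533 members) and 97.1% (208 members). The number of motifs other than the core that were higher at centres, 8 as reported, was 4 (day 28 at 1e-20), 3 (1e-50), 3 (533 members) and 1 (208 members), and the number of listed genes with a member, 166 as reported, was 52, 58, 36 and 15 in that order.

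Directions that turned for single motifs were the E-box against days 9 and 28 (-0.735 at 1e-20 in all lists) and AP-1 against days 9 and 28 (-0.263 at 1e-50 and -2.35 in the 208 members), against flanks (-1.44 in the 208 members) and against day 9 only (-0.763 in the 208 members). No paired analysis was possible because each day is a single pooled list.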

Other observations

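Most members stood near genes that already carried Runx2, but 139 members were nearest to 125 genes to which no other merged region of any day was assigned. The strongest of these, listed after their values were seen, had Olfr854, an olfactory receptor gene, nearest (score 796, -7998 bp from its start site), followed by Gbp8, an interferon-inducible guanylate-binding protein gene (score 696, in an intron, 2464 bp from the start site), and Gm8882 (score 654, -99601 bp from its start site). The Olfr854 member had consecutive peak numbers to either side in the day 9 list, and its nearest day 9 peak was 46420 bp away. In the day 0 list 3 numbers were missing around it. The Olfr854 and Gm8882 members held no TGTGGT anywhere in the region, and the Gbp8 member held 2. The Gbp8 member stood 239394 bp from a day 9 peak, with 10 numbers missing from the day 9 list in between.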
